A study of Mus musculus with 4 samples.

Results

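The 9 genes described here are the 3 transforming growth factor beta ligand genes Tgfb1, Tgfb2 and Tgfb3, the receptor genes Tgfbr1, Tgfbr2 and Tgfbr3, and the response genes Pmepa1, Smad7 and Skil, taken by symbol from the 32285 genes counted in all 4 libraries of single cells from mouse femur. They were followed over stromal and endothelial cell classes set by marker genes. In the largest stromal class at day 40 after injection of lymphoma cells, 7 of the 9 genes were called higher than in sham-injected marrow, as were 7.15% of all genes measured. Pmepa1 was the furthest apart, at 876 CPM in Graft_D40 and 231 CPM in Sham_D40. The co-receptor gene Tgfbr3 was called lower, as were 4.63% of all genes, and Tgfbr2 differed by less than 1.5-fold. Cell cluster 0 made up 75.1% of this class in Graft_D40 and 1.21% in Sham_D40. Without this cluster the calls of Tgfb1, Tgfb2 and Tgfbr3 were lost. Tgfb2 was then lower in Graft_D40, at 5.40 CPM against 8.41 CPM in Sham_D40. In endothelium Pmepa1 was again higher, whereas in chondrocyte-like cells of the same libraries it was lower, at 67.0 CPM in Graft_D40 and 158 CPM in Sham_D40.

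TGF-beta ligands are secreted in a latent complex and act after release, when they bind the type II receptor TGFBR2, which recruits and phosphorylates the type I receptor TGFBR1. The activated type I receptor phosphorylates SMAD2 and SMAD3, which enter the nucleus with SMAD4. Pmepa1, Smad7 and Skil are among the genes this signal induces, and their products restrain it. In bone marrow the ligands are known for control of bone turnover and of haematopoietic stem cell quiescence.

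All mice were of strain C57BL/6 and genotype Rag2-/-gammac-/-, a genotype that leaves hosts without B, T and natural killer lymphocytes, so every group lacks these cells. Graft_D40 and Graft_D19 came from femurs injected with DOHH2, a human B-cell lymphoma line, and taken 40 and 19 days later. Sham_D40 came from femurs given PBS and taken at day 40, and Ctrl from mice left without a graft. Per the labels' protocols, the sort took Cd45-negative and Ter119-negative cells, with Cd51 and Cd200 marking Cd31-negative stroma and Sca1 marking Cd31-positive endothelium. Lymphoma cells positive for human CD20 were also collected. The age of the mice and the number pooled in a library are not given in the sources used here. Each group had 1 library, so no test over animals was possible and every interval below covers counting error only. The libraries held 4867 (Graft_D40), 4813 (Graft_D19), 4527 (Sham_D40) and 4074 (Ctrl) cells after filtering. Ctrl was the shallowest, with a median of 2506 UMIs a barcode against 5187 to 7376.5 in the others, where a UMI is 1 counted RNA molecule.

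Expression is given in CPM, a gene's summed UMIs per 1000000 UMIs of the same class and library. In such sums fewer expressing cells and less RNA per cell cannot be told apart. A gene was called higher or lower when its log2 ratio, with 1 CPM added, reached 1.5-fold, the exact 95% counting interval of the ratio lay off 1 and the mean over the 4 libraries was at least 5 CPM. The verbs rose and fell below are used for calls alone.

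The genes are spread over the genome. On build mm10 the protein-coding ligand genes lie at chr7:25687002-25705077 (Tgfb1), chr1:186622792-186705989 (Tgfb2) and chr12:86056745-86079041 (Tgfb3). The receptor genes lie at chr4:47353222-47414931 (Tgfbr1), chr9:116084293-116175360 (Tgfbr2) and chr5:107106570-107289629 (Tgfbr3). Pmepa1 lies at chr2:173224458-173276533 and Skil at chr3:31095058-31122577. Tgfb3 overlaps Ttll5 and 2 unnamed genes on the other strand, Tgfb2 overlaps 2 unnamed genes and Tgfbr3 overlaps 4, of which 3 lie on its own strand. The overlaps may affect their counts. RefSeq promoter windows of 300 bases, from 250 before to 50 after the start, were at hand for 4 of the 9 genes on the same build. They are shown because they cover both signalling receptors and the ligand genes Tgfb1 and Tgfb2, with the core of the SMAD binding element, CAGAC or its reverse complement GTCTG, in capitals.
Tgfb1, chr7:25686752-25687051, plus strand: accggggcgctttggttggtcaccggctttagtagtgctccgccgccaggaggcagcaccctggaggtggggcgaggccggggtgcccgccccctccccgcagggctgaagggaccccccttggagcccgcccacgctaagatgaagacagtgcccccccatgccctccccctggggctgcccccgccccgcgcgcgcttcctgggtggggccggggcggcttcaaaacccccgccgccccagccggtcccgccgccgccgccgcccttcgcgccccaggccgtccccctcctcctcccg
Tgfb2, chr1:186705940-186706239, minus strand: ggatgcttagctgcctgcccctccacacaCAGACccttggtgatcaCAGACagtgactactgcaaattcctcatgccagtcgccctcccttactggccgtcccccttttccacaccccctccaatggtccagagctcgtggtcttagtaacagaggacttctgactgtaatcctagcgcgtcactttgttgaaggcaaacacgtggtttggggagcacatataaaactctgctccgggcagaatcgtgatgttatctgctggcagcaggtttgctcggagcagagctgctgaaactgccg
Tgfbr1, chr4:47352972-47353271, plus strand: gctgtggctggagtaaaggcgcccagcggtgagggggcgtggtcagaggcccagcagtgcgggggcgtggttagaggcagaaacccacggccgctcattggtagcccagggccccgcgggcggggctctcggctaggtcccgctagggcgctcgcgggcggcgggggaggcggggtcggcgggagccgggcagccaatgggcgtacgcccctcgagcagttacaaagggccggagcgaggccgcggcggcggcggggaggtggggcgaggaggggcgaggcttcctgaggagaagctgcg
Tgfbr2, chr9:116175314-116175613, minus strand: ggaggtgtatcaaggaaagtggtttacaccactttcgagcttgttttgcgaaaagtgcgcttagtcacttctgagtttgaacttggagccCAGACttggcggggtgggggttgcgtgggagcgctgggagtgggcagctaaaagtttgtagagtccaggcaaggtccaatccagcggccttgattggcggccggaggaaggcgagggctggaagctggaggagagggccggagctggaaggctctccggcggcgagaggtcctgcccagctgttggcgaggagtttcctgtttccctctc
The Tgfb2 window held 2 matches to CAGAC on either strand and the Tgfbr2 window 1, whereas the Tgfb1 window and the Tgfbr1 window printed here held none. A further window of Tgfbr1, at another start, held 1. Of all 32851 windows of this length, 49.6% held at least 1 match, so a match is common. The 8-base palindrome GTCTAGAC, found in 0.213% of all windows, was in none of the members' windows. The GC box GGGCGG, on either strand, occurred 6 times in Tgfb1 and 2 times in the printed Tgfbr1 window, and was found in 35.7% of all windows. These matches describe the letters of the windows and say nothing of what binds there.

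Cells fell into 28 clusters. Clusters 0, 1, 2, 4, 5 and 15 expressed markers of leptin receptor stroma (Lepr, Cxcl12, Kitl and others), the main CXCL12 source of marrow, and are called the LepR-marker pool. It had 1506 cells from Graft_D40 and 1834 from Graft_D19, against 1991 from Sham_D40 and 1714 from Ctrl. Cluster 0 carried 7 of the 12 LepR markers, but its 10 leading genes, among them Col8a1, Heyl, Tnfsf11 and Notch3, held none of these and 1 pericyte marker, so it is given by number. Pool results are therefore also given without it, as LepR-like stroma. Different clusters held most of the pool in each library. Cluster 0 made up 75.1% of it in Graft_D40 and 29.8% in Graft_D19, against 1.21% in Sham_D40 and 0.817% in Ctrl. Clusters 2 and 5 together led in Sham_D40 with 48.2% and 32.3%, and cluster 15 held 65.6% of the Ctrl cells and under 1% elsewhere. Cluster 1 was led by the immediate-early genes Egr1, Fosb, Jun and Fos. Endothelium comprised clusters 8, 9, 10, 11, 12 and 18 (1257, 1311, 1264 and 1458 cells in Graft_D40, Graft_D19, Sham_D40 and Ctrl), of which 10, 11 and 12 were sinusoidal-like and 18 arterial-like. Cluster 10 held 47.7% of endothelium in Graft_D40 and 47.9% in Graft_D19, against 14.8% in Sham_D40 and 5.14% in Ctrl. Cluster 12 led in Sham_D40 with 46.4% and cluster 11 in Ctrl with 66.7%. Osteolineage-like, chondrocyte-like, fibroblast-like and pericyte-like cells made up the remaining stroma.

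Macrophage and lymphoid markers were low in the LepR-marker pool. The 10 macrophage and monocyte markers together reached 5.12 CPM in Graft_D40, 6.87 CPM in Graft_D19, 6.70 CPM in Sham_D40 and 2.68 CPM in Ctrl, the 6 lymphoid markers were below 0.4 CPM in each, and Ptprc, the leukocyte gene behind the Cd45 gate, was at 0 in Graft_D19 and Sham_D40. The 7 neutrophil markers summed to 11.99 CPM in Graft_D40, 33.8 CPM in Graft_D19, 20.9 CPM in Sham_D40 and 40.4 CPM in Ctrl. Erythroid markers, with haemoglobin genes among them, were lowest with the graft, at 10.4 CPM in Graft_D40, 46.8 CPM in Graft_D19, 100.2 CPM in Sham_D40 and 234 CPM in Ctrl. Other stromal lists differed between the libraries as well. The 12 pericyte markers summed to 643 CPM in Graft_D40, 422 CPM in Graft_D19, 289 CPM in Sham_D40 and 222 CPM in Ctrl, and the 13 fibroblast markers to 3140.4 CPM in Graft_D40, 1129.8 CPM in Graft_D19, 852 CPM in Sham_D40 and 898 CPM in Ctrl. The 12 LepR markers summed to 33666 CPM in Graft_D40 and 50053 CPM in Graft_D19, against 64289 CPM in Sham_D40 and 58082 CPM in Ctrl. The 12 osteolineage markers summed to 10369 CPM in Graft_D40 and 11046 CPM in Graft_D19, against 12854 CPM in Sham_D40 and 17298 CPM in Ctrl. The part of these shifts in the results was not tested. An unnamed cluster with B-cell gene Ms4a1 and ribosomal pseudogenes among its leading genes, cluster 22, was left out of all classes. It held 230 cells in Graft_D40 and 66 in Graft_D19, against 0 in Sham_D40 and 15 in Ctrl. Whether these were the collected human lymphoma cells was not tested. Counted against mouse genes, its 230 cells in Graft_D40 had 8.64 CPM of Pmepa1, 2.09 CPM of Tgfb3 and 93.7 CPM of Tgfb1.

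The 3 ligand genes were expressed in different cells. Tgfb1, the ligand that blood and endothelial cells make widely, was highest in sinusoidal-like endothelium, at 256 to 323 CPM over the 4 libraries, above every other class in all 4. It was lowest in the LepR-marker pool at 37.2 to 92.1 CPM and in pericyte-like cells at 43.3 to 89.2 CPM, whose ranges overlapped. The osteolineage-like, arterial-like, other endothelial, fibroblast-like and chondrocyte-like classes lay between them with each range overlapping the next. Tgfb2 was placed the other way round within endothelium. It was highest in arterial-like endothelium, at 112 to 325 CPM, overlapping fibroblast-like (90.4 to 163 CPM) and chondrocyte-like cells (88.5 to 126 CPM), and lowest in sinusoidal-like endothelium, at 0.585 to 7.54 CPM. Tgfb3 was a stromal gene in these data. Fibroblast-like cells had 48.9 to 74.2 CPM, pericyte-like cells 51.3 to 76.8 CPM and the LepR-marker pool 17.7 to 70.8 CPM, and the 3 endothelial classes 1.28 to 2.56 CPM (sinusoidal-like), 0 to 2.34 CPM (other endothelial) and 0 to 3.01 CPM (arterial-like). With cells thinned to 1500 UMIs, 0.407% of endothelial cells in Graft_D40 and 0.253% in Ctrl held a Tgfb3 UMI, against 9.75% of LepR-marker cells in Graft_D40 and 3.04% in Ctrl. Without thinning the endothelial shares were 1.59% in Graft_D40 and 0.686% in Ctrl, shares that cannot be told apart from free RNA.

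Among the receptors, Tgfbr2, the ligand-binding type II receptor, was highest in arterial-like (366 to 705 CPM) and sinusoidal-like endothelium (217 to 341 CPM), with no overlap between them or with fibroblast-like cells below (111 to 144 CPM). It was lowest in osteolineage-like cells at 36.8 to 48.0 CPM. Tgfbr3, betaglycan, a co-receptor that presents TGF-beta2 in particular, was highest in the LepR-marker pool at 293 to 532 CPM, above fibroblast-like cells in every library. It had its lowest mean in arterial-like endothelium at 19.9 to 57.9 CPM. Arterial-like cells thus had the highest mean Tgfb2 and the lowest mean Tgfbr3 of the 8 classes. Tgfbr1, the type I receptor, had its highest mean in fibroblast-like cells at 45.2 to 93.8 CPM, where the LepR-marker pool overlapped (23.9 to 52.4 CPM) and was the higher of the 2 in Graft_D40, and the ranges of the other 7 classes overlapped in sequence between 32.1 to 39.9 CPM in osteolineage-like and 5.13 to 35.7 CPM in pericyte-like cells. The response genes differed in place as well. Pmepa1, a membrane protein that sequesters SMAD2 and SMAD3, was highest in fibroblast-like cells at 523 to 844 CPM, overlapping the LepR-marker pool at 208 to 876 CPM. Smad7, the inhibitory SMAD that blocks the type I receptor, was highest in arterial-like endothelium at 164 to 355 CPM. It had its lowest mean in fibroblast-like cells at 18.8 to 54.5 CPM. Skil, the SMAD co-repressor SnoN, also had its highest mean in arterial-like endothelium, at 74.7 to 139 CPM, with every neighbouring pair of classes overlapping. In Graft_D40 the LepR-marker pool was higher, at 123 CPM against 121 CPM in arterial-like cells. In Ctrl other endothelial cells were higher, at 89.7 CPM against 74.7 CPM.

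**Figure D1:**
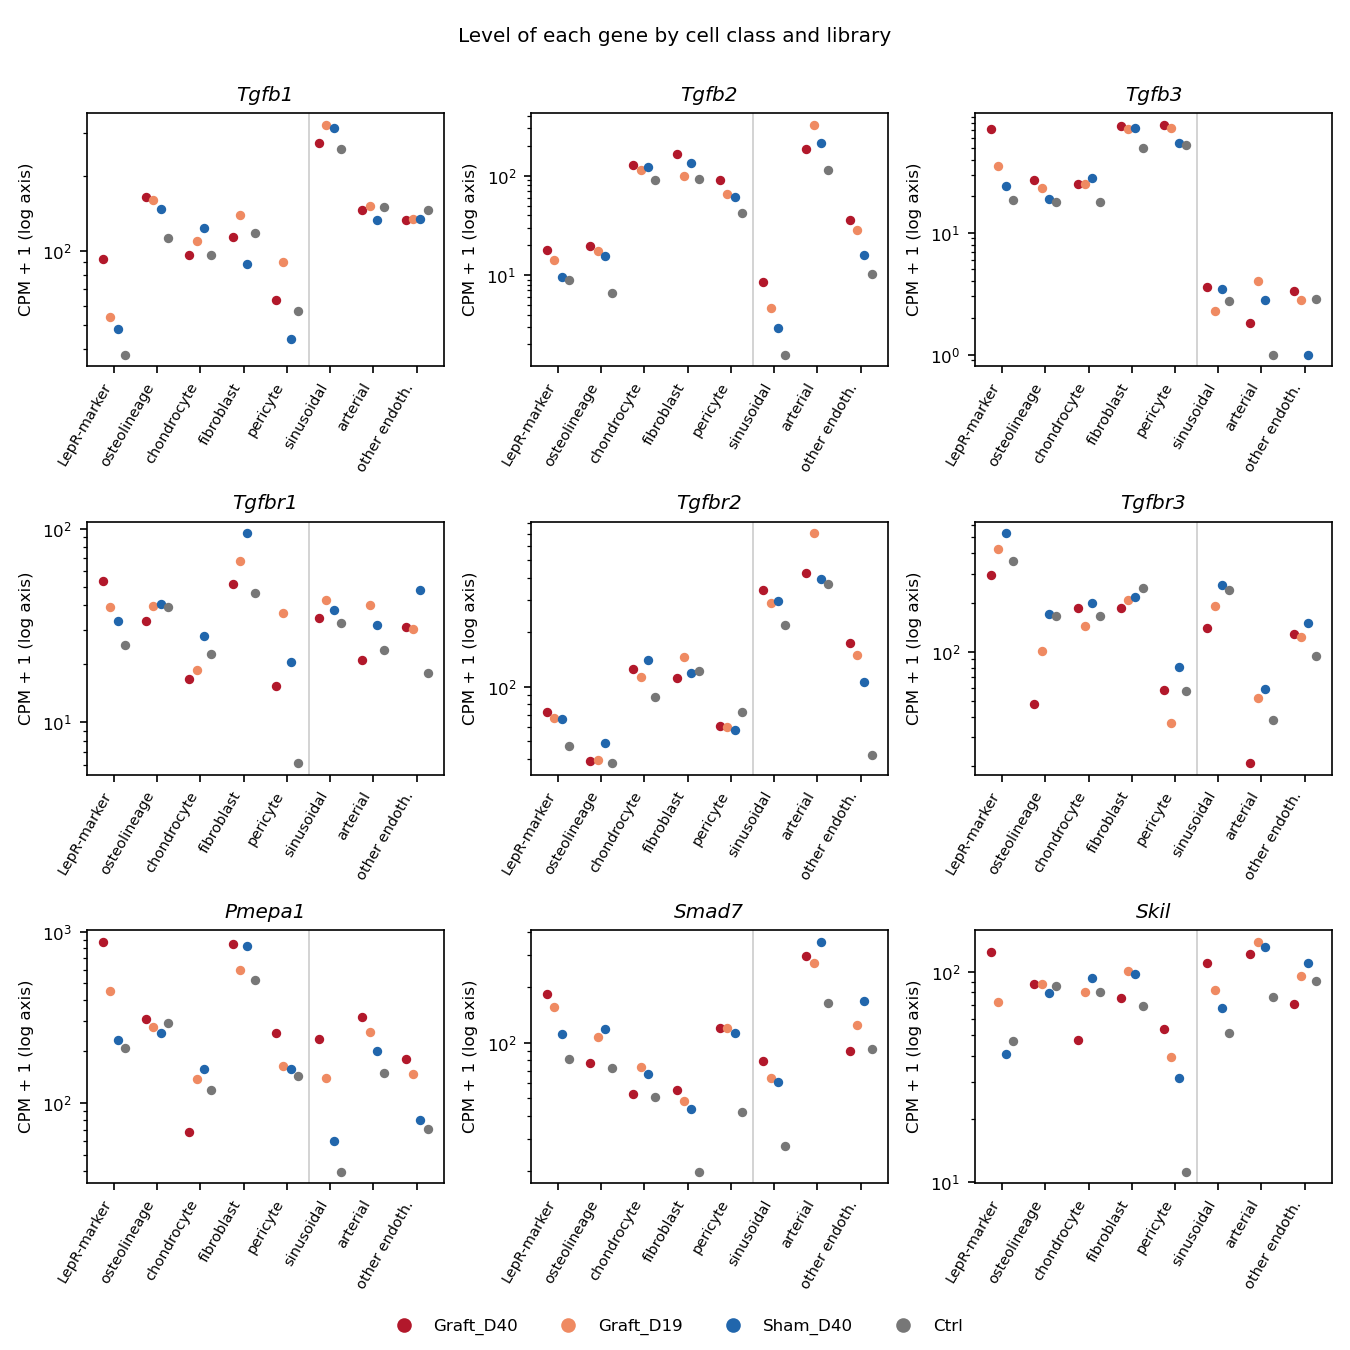
CPM + 1 on a log axis for each of the 9 genes in 8 cell classes, with 1 point for each library and no error bars. Tgfb3 lies between 0 and 3.01 CPM in the endothelial classes right of the grey line and at 16.9 CPM or more in the stromal classes left of it, and Tgfb2 separates arterial-like from sinusoidal-like endothelium.

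The first comparison set lymphoma-grafted marrow at day 40 against sham-injected marrow of the same day in the LepR-marker pool. Of the 9 genes 7 rose and 1 fell, where 7.15% of the 10535 genes measured rose and 4.63% fell. The median log2 ratio of the 9 genes was 0.90 and that of all genes 0.05. Without cluster 0, in LepR-like stroma, 5 of the 9 rose (Tgfb3, Tgfbr1, Pmepa1, Smad7 and Skil) and none fell, against 5.37% and 3.09% of all genes, with a median of 0.71 against 0.06. At a 2-fold threshold the calls of Tgfb3, Pmepa1 and Skil were kept in the pool with cluster 0. Cluster 15 was not read alone, with 3 cells in Graft_D40 and 6 in Sham_D40. With the clusters of the pool weighted equally, a setting chosen after seeing the data, the 5 genes called in LepR-like stroma passed 1.5-fold and the other 4 did not. Calls within single clusters are read against their own shares of all genes called higher, which were 3.9% in cluster 0, 7.23% in cluster 1, 4.91% in cluster 2, 8.64% in cluster 4 and 4.66% in cluster 5. The shares called lower were 3.21% in cluster 2 and 2.64% in cluster 4.

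Among the ligand genes, Tgfb1 in the pool was at 92.1 CPM in Graft_D40, 53.3 CPM in Graft_D19, 47.2 CPM in Sham_D40 and 37.2 CPM in Ctrl. Graft_D40 was set apart, at a ratio of 1.95 (95% interval 1.79 to 2.13) to Sham_D40, and the other 3 lay closer together. In LepR-like stroma Tgfb1 was at 69.4 CPM in Graft_D40 and 46.8 CPM in Sham_D40 and was not called, and of clusters 0, 1, 2, 4 and 5 only cluster 1 was called, at 103 CPM in Graft_D40 and 46.9 CPM in Sham_D40. Cluster 0 itself was high in both libraries, at 97.2 CPM in Graft_D40 and 80.9 CPM in Sham_D40. Tgfb3 was at 70.8 CPM in Graft_D40, 34.4 CPM in Graft_D19, 23.5 CPM in Sham_D40 and 17.7 CPM in Ctrl. Both grafted libraries were above both ungrafted ones, and the ratio of Graft_D40 to Sham_D40 was 3.01 (95% interval 2.68 to 3.39). Unlike Tgfb1, Tgfb3 was higher in Graft_D40 in each of the 5 clusters, with cluster 0 at 76.5 CPM in Graft_D40 and 36.4 CPM in Sham_D40, cluster 1 at 67.0 CPM in Graft_D40 and 28.5 CPM in Sham_D40 and cluster 4 at 63.4 CPM in Graft_D40 and 26.4 CPM in Sham_D40, which were called. Cluster 0 held 24 cells in Sham_D40. Tgfb2 was low, at 16.96 CPM in Graft_D40, 13.2 CPM in Graft_D19, 8.62 CPM in Sham_D40 and 7.88 CPM in Ctrl. Its pool ratio of 1.97 (95% interval 1.60 to 2.43) was called. In LepR-like stroma, without cluster 0, the direction turned, to 5.40 CPM in Graft_D40 and 8.41 CPM in Sham_D40, with no call. Those levels rested on 13 UMIs in Graft_D40 and 151 in Sham_D40. Without clusters 0 and 1 the pool log2 ratio was -1.005, and cluster 2 had 2.56 CPM in Graft_D40 and 8.42 CPM in Sham_D40. With clusters weighted equally Tgfb2 came to 8.86 CPM in Graft_D40 and 10.7 CPM in Sham_D40. The 10 cells with the most Tgfb2 held 25.2% of its UMIs in Graft_D40 and 19.7% in Sham_D40.

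The receptor genes did not move as one. Tgfbr1 was at 52.4 CPM in Graft_D40, 38.5 CPM in Graft_D19, 32.2 CPM in Sham_D40 and 23.9 CPM in Ctrl in the pool. Its ratio of Graft_D40 to Sham_D40 was 1.63 (95% interval 1.46 to 1.82), and LepR-like stroma alone gave nearly the same levels, 53.2 CPM in Graft_D40 and 32.2 CPM in Sham_D40. Tgfbr2 was at 71.5 CPM in Graft_D40, 66.2 CPM in Graft_D19, 65.0 CPM in Sham_D40 and 45.9 CPM in Ctrl. The ratio of 1.10 (95% interval 1.01 to 1.20) stayed below the 1.5-fold threshold, and no single cluster of the pool was called. Tgfbr3 moved the other way, at 293 CPM in Graft_D40, 421 CPM in Graft_D19, 532 CPM in Sham_D40 and 359 CPM in Ctrl. It was 1.81-fold lower in Graft_D40 than in Sham_D40 (95% interval of the inverse ratio 1.75 to 1.88), and Graft_D19 lay between them. All 5 clusters had the lower level in Graft_D40, but only cluster 4 was called, at 305 CPM in Graft_D40 and 615 CPM in Sham_D40, and LepR-like stroma as a whole was not (382 CPM in Graft_D40 and 533 CPM in Sham_D40). Cluster 0, which held most Graft_D40 cells, was below the other 4 in each library, at 273 CPM in Graft_D40 and 408 CPM in Sham_D40. Ctrl was itself below Sham_D40, and against Ctrl the Graft_D40 ratio of 0.816 (95% interval 0.775 to 0.859) was not called.

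The 3 response genes rose together in the pool at day 40. Pmepa1 was at 876 CPM in Graft_D40, 450.2 CPM in Graft_D19, 231 CPM in Sham_D40 and 208 CPM in Ctrl. The grafted libraries stood apart from both ungrafted ones, day 40 above day 19, at 3.79 (95% interval 3.66 to 3.93) times Sham_D40. After thinning to 1500 UMIs a cell, 62.3% of LepR-marker cells held a Pmepa1 UMI in Graft_D40 and 44.6% in Graft_D19, against 27.5% in Sham_D40 and 23.9% in Ctrl. Without thinning the shares were 92.4% in Graft_D40 and 82.3% in Graft_D19, against 72.5% in Sham_D40 and 46.1% in Ctrl. The rise was called within each of the 5 clusters. Cluster 0 had 958 CPM in Graft_D40 and 453 CPM in Sham_D40, cluster 1 769.9 CPM in Graft_D40 and 229 CPM in Sham_D40, cluster 2 439 CPM in Graft_D40 and 223 CPM in Sham_D40, cluster 4 455 CPM in Graft_D40 and 170.4 CPM in Sham_D40 and cluster 5 388 CPM in Graft_D40 and 242 CPM in Sham_D40. With equal weights the levels were 602 CPM in Graft_D40 and 264 CPM in Sham_D40, so the pooled 3.79-fold became 2.29-fold.

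Skil was at 123 CPM in Graft_D40, 70.8 CPM in Graft_D19, 39.6 CPM in Sham_D40 and 45.8 CPM in Ctrl. Graft_D40 was highest and Sham_D40 lowest, with a ratio of 3.11 (95% interval 2.85 to 3.40). Skil was called in all 5 clusters, from 119 CPM in Graft_D40 and 29.4 CPM in Sham_D40 in cluster 4 to 67.9 CPM in Graft_D40 and 40.1 CPM in Sham_D40 in cluster 5. Smad7 was at 183 CPM in Graft_D40, 155 CPM in Graft_D19, 111 CPM in Sham_D40 and 80.1 CPM in Ctrl. Its order over the libraries was that of all the other members except Tgfbr3 and Skil. The Smad7 ratio of 1.65 (95% interval 1.56 to 1.76) was smaller than that of Pmepa1 or Skil. It was called in clusters 2, 4 and 5, with 229.7 CPM in Graft_D40 and 115 CPM in Sham_D40 in cluster 4, and not in clusters 0 and 1, where it was still higher in Graft_D40 (182 CPM in Graft_D40 and 125 CPM in Sham_D40 in cluster 0).

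**Figure D2:**
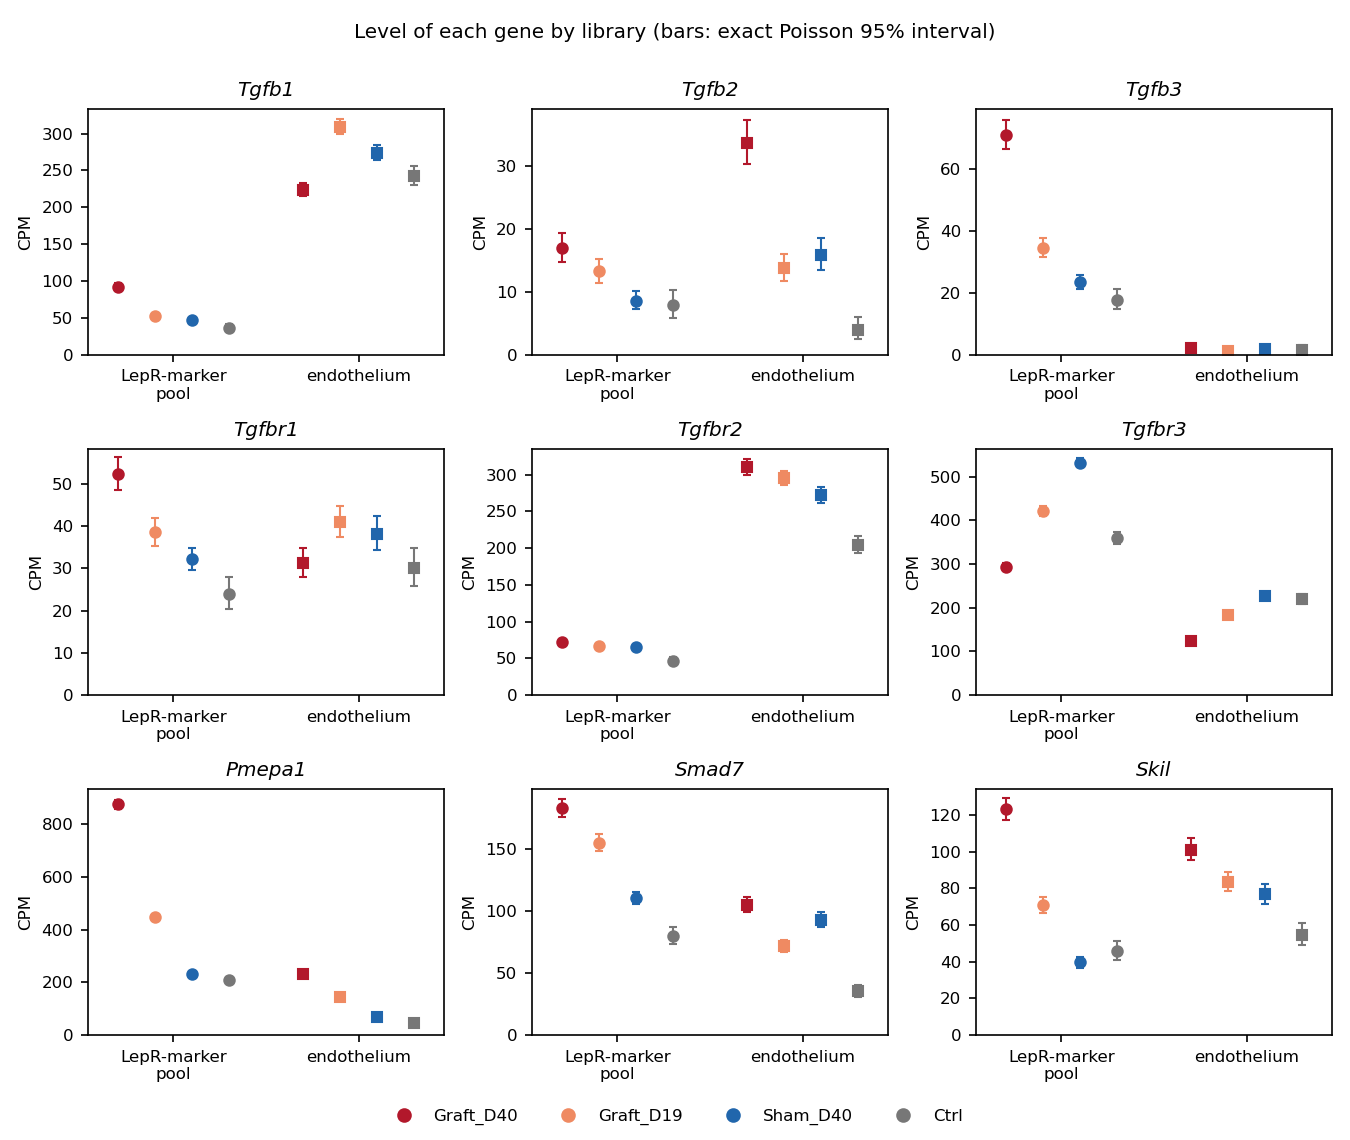
CPM of each gene in the LepR-marker pool (circles) and in endothelium (squares), from left to right Graft_D40, Graft_D19, Sham_D40 and Ctrl, with exact Poisson 95% intervals that cover counting error only. In the LepR-marker pool Pmepa1, Tgfb3, Tgfb1 and Smad7 are highest in Graft_D40 and Tgfbr3 is lowest there, and in endothelium Tgfb3 stays below 2.5 CPM.

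The second comparison set day 19 of the graft against marrow with no graft. There was no sham library of day 19. Injection and lymphoma therefore cannot be told apart in ratios of Graft_D19 over Ctrl, in any class. In the LepR-marker pool 6 of the 9 genes rose and none fell over Ctrl, where 28.3% of all genes rose and 7.65% fell. The median log2 ratio was 0.66 for the 9 genes and 0.29 for all genes, a shift that all ratios over Ctrl share, so the following values are to be read against it. Pmepa1 had the largest ratio, 2.16 (95% interval 2.04 to 2.29), followed by Tgfb3 at 1.95 (95% interval 1.59 to 2.40) and Smad7 at 1.94 (95% interval 1.76 to 2.13). Tgfb2, Tgfbr1 and Skil had ratios between 1.55 and 1.68. With median-of-ratios scaling, which brings the all-gene median near 0, the calls of Pmepa1, Tgfb3 and Smad7 were kept and these 3 were lost. Ctrl cells came mainly from cluster 15 and Graft_D19 cells from clusters 0 and 2. Against Sham_D40 in place of Ctrl, 2 of the 9 genes rose (2.72% of all genes): Pmepa1 at 1.95 (95% interval 1.88 to 2.03) and Skil at 1.79 (95% interval 1.62 to 1.97). In LepR-like stroma Graft_D19 had none of the 9 higher than Sham_D40 (beside 1.6% of all genes), with Pmepa1 at 333 CPM in Graft_D19 and 228 CPM in Sham_D40, a ratio of 1.46 (95% interval 1.40 to 1.53), whereas in cluster 0 Pmepa1 was at 681 CPM in Graft_D19 and 453 CPM in Sham_D40.

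Set against day 19, day 40 of the graft had 4 of the 9 genes higher and none lower, where 3.11% of all genes rose and 2.38% fell. These were Pmepa1, Tgfb3, Skil and Tgfb1, at ratios of 1.95 (95% interval 1.89 to 2.01), 2.06 (95% interval 1.84 to 2.30), 1.74 (95% interval 1.61 to 1.89) and 1.73 (95% interval 1.58 to 1.90). The same 4 were called in LepR-like stroma, where 3.82% of all genes rose, and Tgfb2 was called lower there (5.40 CPM in Graft_D40 and 11.1 CPM in Graft_D19), where 2.49% fell. Between the ungrafted libraries, Sham_D40 over Ctrl, none of the 9 genes was called in the pool, where 25.5% of all genes rose and 9.72% fell. Pmepa1 was at a ratio of 1.11 (95% interval 1.04 to 1.18) there and Skil at 0.865 (95% interval 0.756 to 0.992). Over Ctrl, 8 of the 9 genes rose in Graft_D40, all but Tgfbr3, against 30.5% of all genes, and none fell, against 10.2%. The day 40 and day 19 comparisons with one ungrafted library share that library. Graft_D40 and Sham_D40 also held counts of 2 antibody features, whereas Graft_D19 and Ctrl held 0. In ratios across that divide, such as Graft_D40 over Graft_D19, the groups and this difference between libraries cannot be told apart.

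In endothelium the changes were fewer. Over Sham_D40, Graft_D40 had 2 of 8 measured genes higher (Pmepa1 and Tgfb2) and 1 lower (Tgfbr3), where 5.94% of 10256 genes rose and 6.84% fell, and the median log2 ratios were 0.18 for the 8 genes and 0.02 for all genes. Tgfb3 was below 5 CPM on average and was not read. Pmepa1 was at 232 CPM in Graft_D40, 143 CPM in Graft_D19, 69.9 CPM in Sham_D40 and 44.2 CPM in Ctrl. The libraries were ordered as in the LepR-marker pool, and the ratio of Graft_D40 to Sham_D40 was 3.32 (95% interval 3.05 to 3.62). The 13 fibroblast markers were also highest in Graft_D40, with a sum of 4538 CPM in Graft_D40, 1489.5 CPM in Graft_D19, 1982 CPM in Sham_D40 and 1632 CPM in Ctrl, and their part in the result was not tested. In sinusoidal-like endothelium they were at 2435 CPM in Graft_D40 and 689 CPM in Sham_D40. Ly6a and Cd34 of the fibroblast list are also on the arterial marker list. Pmepa1 was called in clusters 10 (at 267 CPM in Graft_D40 and 134 CPM in Sham_D40), 8 (246 CPM in Graft_D40 and 93.7 CPM in Sham_D40) and 18 (318 CPM in Graft_D40 and 199 CPM in Sham_D40), and not in clusters 9 (78.0 CPM in Graft_D40 and 70.1 CPM in Sham_D40) and 12 (48.7 CPM in Graft_D40 and 37.1 CPM in Sham_D40). Of all genes 5.34% were called higher in cluster 10, 5.62% in cluster 8 and 3.95% in cluster 18. Cluster 11 held 20 cells in Graft_D40 and 100 in Sham_D40, and was not called at 158 CPM in Graft_D40 and 67.1 CPM in Sham_D40. Cluster 12, with the lowest Pmepa1 of the 3 sinusoidal-like clusters in both libraries, held 7.24% of endothelium in Graft_D40 against 46.4% in Sham_D40. With clusters weighted equally Pmepa1 was at 186 CPM in Graft_D40 and 100.2 CPM in Sham_D40 and was the 1 gene of the 8 past 1.5-fold.

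Tgfb2 in endothelium was at 33.7 CPM in Graft_D40, 13.8 CPM in Graft_D19, 15.9 CPM in Sham_D40 and 3.97 CPM in Ctrl. Graft_D40 was highest and Ctrl lowest, and the ratio of Graft_D40 to Sham_D40 was 2.12 (95% interval 1.75 to 2.57). The makeup of the pool moved with it. Arterial-like cluster 18 made up 12.3% of endothelium in Graft_D40 and 7.67% in Sham_D40, and within it Tgfb2 was not higher, at 183 CPM in Graft_D40 and 212 CPM in Sham_D40. With clusters weighted equally Tgfb2 was at 43.0 CPM in Graft_D40 and 41.6 CPM in Sham_D40. Cluster 8, led by Vwf, was called higher on its own, at 42.1 CPM in Graft_D40 and 17.7 CPM in Sham_D40. Tgfbr3 was at 123 CPM in Graft_D40, 184 CPM in Graft_D19, 226 CPM in Sham_D40 and 219.8 CPM in Ctrl. It was 1.83-fold lower in Graft_D40 than in Sham_D40 (interval 1.71 to 1.97 of the inverse ratio), and was called lower within clusters 10 (110.2 CPM in Graft_D40 and 183 CPM in Sham_D40), 8 (115 CPM in Graft_D40 and 210.5 CPM in Sham_D40) and 18 (19.9 CPM in Graft_D40 and 57.9 CPM in Sham_D40) but not in clusters 12 (318 CPM in Graft_D40 and 272 CPM in Sham_D40) and 9 (149 CPM in Graft_D40 and 111 CPM in Sham_D40). The shares of all genes called lower were 4.91% in cluster 10, 4.37% in cluster 8 and 4.2% in cluster 18. The 10 sinusoidal markers summed to 2636 CPM in Graft_D40 (Sham_D40 7635 CPM), and the arterial markers to 5944 CPM in Graft_D40 (Sham_D40 3508 CPM).

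The remaining genes did not pass the threshold in endothelium at day 40. Tgfb1 was at 224 CPM in Graft_D40, 309 CPM in Graft_D19, 274 CPM in Sham_D40 and 243 CPM in Ctrl, with Graft_D40 lowest. Tgfbr2 was at 310.3 CPM in Graft_D40, 295 CPM in Graft_D19, 272 CPM in Sham_D40 and 205 CPM in Ctrl, Tgfbr1 at 31.2 CPM in Graft_D40, 40.9 CPM in Graft_D19, 38.2 CPM in Sham_D40 and 30.0 CPM in Ctrl, Smad7 at 105 CPM in Graft_D40, 72.0 CPM in Graft_D19, 93.1 CPM in Sham_D40 and 35.5 CPM in Ctrl and Skil at 101 CPM in Graft_D40, 83.6 CPM in Graft_D19, 76.7 CPM in Sham_D40 and 54.7 CPM in Ctrl. Skil was called in sinusoidal-like endothelium taken alone, at 109 CPM in Graft_D40 and 66.4 CPM in Sham_D40, a ratio of 1.65 (95% interval 1.47 to 1.84) where 7.43% of all genes rose, but not in cluster 10 (116 CPM in Graft_D40 and 117 CPM in Sham_D40), cluster 12 (65.3 CPM in Graft_D40 and 53.4 CPM in Sham_D40) or cluster 11 (105 CPM in Graft_D40 and 44.8 CPM in Sham_D40), where 6 and 16 UMIs gave a ratio of 2.35 (95% interval 0.752 to 6.31). The other endothelial class, clusters 8 and 9, had Pmepa1, Tgfb2 and Tgfbr2 higher (beside 6% of all genes) and Tgfbr1, Smad7 and Skil lower (beside 4.67%). Tgfbr2 there was at 173 CPM in Graft_D40 and 104 CPM in Sham_D40, Smad7 at 89.2 CPM in Graft_D40 and 167 CPM in Sham_D40 and Skil at 69.4 CPM in Graft_D40 and 109.8 CPM in Sham_D40. At day 19, 4 of the 8 measured genes rose over Ctrl (17.4% of all genes rose, with a median log2 ratio of 0.18 over all genes and 0.57 over the 8). They were Pmepa1 at 3.24 (95% interval 2.84 to 3.71), Tgfb2 at 3.47 (95% interval 2.24 to 5.63), Smad7 at 2.03 (95% interval 1.74 to 2.37) and Skil at 1.53 (95% interval 1.35 to 1.74). Over Sham_D40 only Pmepa1 rose at day 19 (1 of 8 genes, and 2.15% of all genes), at 2.05 (95% interval 1.87 to 2.24). Smad7 and Tgfb2 were then below the sham level. The ungrafted libraries themselves differed in 3 of the 8, Sham_D40 being higher than Ctrl for Smad7 at 2.62 (95% interval 2.25 to 3.06), Tgfb2 at 4.01 (95% interval 2.57 to 6.51) and Pmepa1 at 1.58 (95% interval 1.37 to 1.83), where 19.6% of all genes rose.

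In chondrocyte-like cells, the cells of cartilage, 3 of 9 genes fell in Graft_D40 relative to Sham_D40 and none rose, where 6.84% of 9981 genes fell and 1.51% rose. Pmepa1 was at 67.0 CPM in Graft_D40, 137 CPM in Graft_D19, 158 CPM in Sham_D40 and 118 CPM in Ctrl. Graft_D40 was below the other 3 libraries, at a ratio of 0.425 (95% interval 0.396 to 0.456) to Sham_D40, and the fall was called within cluster 19 (56.4 CPM in Graft_D40 and 111 CPM in Sham_D40) and cluster 25 (142 CPM in Graft_D40 and 281 CPM in Sham_D40), which was led by the joint lubricant gene Prg4. Of all genes 4.5% were called lower in cluster 19 and 9.33% in cluster 25. Cluster 7 went the other way, with 61.8 CPM in Graft_D40 and 53.5 CPM in Sham_D40, and the class mean with equal weights over clusters 7, 19 and 25 came to 86.8 CPM in Graft_D40 and 149 CPM in Sham_D40. The clusters were not filled alike: cluster 25, with the highest Pmepa1 of the 3, held 9.81% of chondrocyte-like cells in Graft_D40 and 38.2% in Sham_D40, and cluster 19 held 70.0% in Graft_D40 and 48.9% in Sham_D40. The class also held cluster 17, which was not in these weights and had 13 cells in Sham_D40. It made up 12.1% of the class in Graft_D40, 2.78% in Sham_D40 and 69.7% in Ctrl, with a median of 1317 UMIs a cell. Skil was at 46.3 CPM in Graft_D40 and 92.9 CPM in Sham_D40 and Tgfbr1 at 15.6 CPM in Graft_D40 and 26.9 CPM in Sham_D40. With equal weights Tgfbr1 came to 18.6 CPM in Graft_D40 and 25.2 CPM in Sham_D40 and no longer reached 1.5-fold. Skil fell in clusters 19 and 25 as well, at 44.5 CPM in Graft_D40 and 88.6 CPM in Sham_D40 in cluster 19 and 41.2 CPM in Graft_D40 and 97.8 CPM in Sham_D40 in cluster 25. Whether the chondrocyte-like and LepR-marker responses differ could not be tested with 1 library a group.

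Osteolineage-like cells gave different answers pooled and by cluster. The pool had 309 CPM in Graft_D40 and 256 CPM in Sham_D40 of Pmepa1, which was not called, but it was called higher in both of its clusters, cluster 3 (led by Mmp13 and Spp1) at 591 CPM in Graft_D40 and 359 CPM in Sham_D40 and cluster 6 (led by Bglap2, Ifitm5 and Col1a1) at 178 CPM in Graft_D40 and 109 CPM in Sham_D40. Cluster 6, with the lower Pmepa1 level, made up 42.4% of osteolineage-like cells in Graft_D40 against 20.2% in Sham_D40. In the pool 2 of 9 genes fell, beside 20.8% of all genes, and none rose, beside 2.83%. Tgfbr3 was at 46.8 CPM in Graft_D40 and 169 CPM in Sham_D40, and was called lower in cluster 3 (127 CPM in Graft_D40 and 277 CPM in Sham_D40) but not in cluster 6, where it was scarce (9.65 CPM in Graft_D40 and 14.9 CPM in Sham_D40). Smad7 was at 76.6 CPM in Graft_D40 and 117 CPM in Sham_D40, yet at 175 CPM in Graft_D40 and 166 CPM in Sham_D40 in cluster 3. In cluster 3 Tgfb3 (59.8 CPM in Graft_D40 and 23.8 CPM in Sham_D40), Tgfb2 (48.9 CPM in Graft_D40 and 11.8 CPM in Sham_D40) and Skil (179 CPM in Graft_D40 and 105 CPM in Sham_D40) were called higher. With equal weights over clusters 3 and 6, Pmepa1, Tgfb2, Tgfb3 and Skil were past 1.5-fold higher and Tgfbr3 past 1.5-fold lower. In cluster 3 4.32% of all genes were called higher and 5.53% lower, and in cluster 6 2.65% were called higher.

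Fibroblast-like cells had high Pmepa1 in every library, 844 CPM in Graft_D40 and 824 CPM in Sham_D40, with no call. Tgfbr1 was the 1 gene of 9 that fell there (3.86% of all genes fell), at 50.6 CPM in Graft_D40 and 93.8 CPM in Sham_D40, in both of its clusters (41.1 CPM in Graft_D40 and 62.4 CPM in Sham_D40 in cluster 23 and 79.4 CPM in Graft_D40 and 162 CPM in Sham_D40 in cluster 26), where 4.58% and 3.6% of all genes were called lower. In pericyte-like cells Pmepa1 alone rose (1 of 9, and 3.81% of all genes), at 254 CPM in Graft_D40 and 158 CPM in Sham_D40, with 134 cells in Graft_D40 and 49 in Sham_D40.

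**Figure D3:**
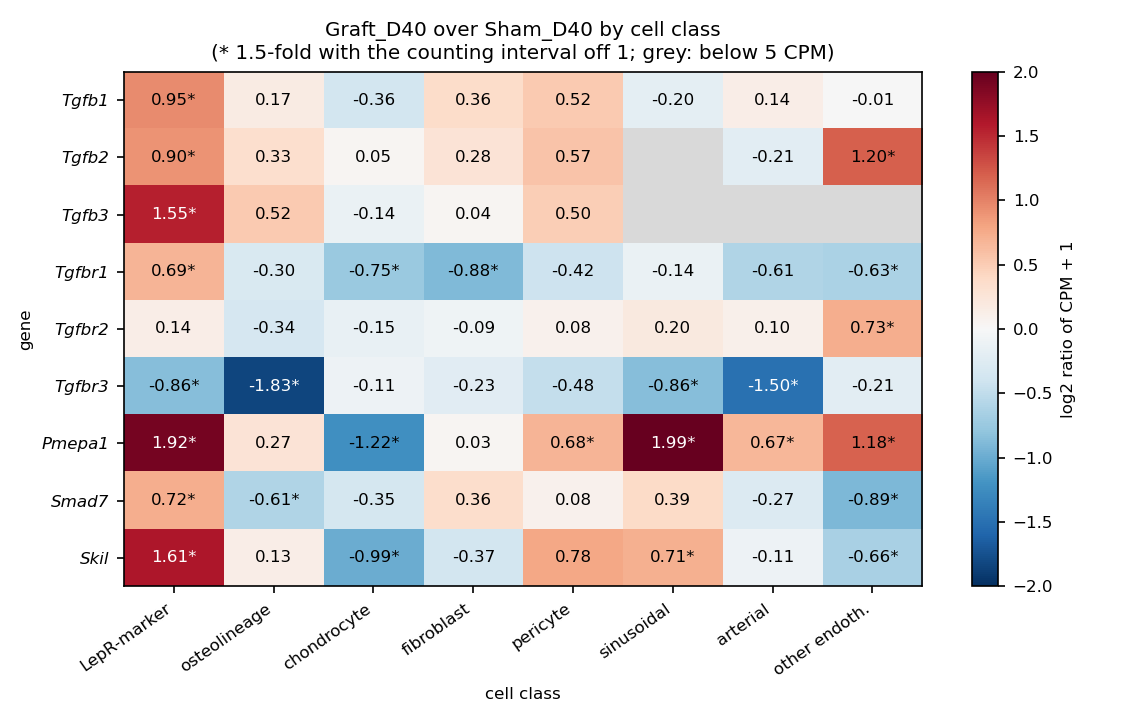
Log2 ratio of Graft_D40 over Sham_D40 (CPM + 1) for the 9 genes in 8 cell classes, with red for higher and blue for lower in Graft_D40, an asterisk for a call and grey where the mean was below 5 CPM. Pmepa1 runs between 1.99 in sinusoidal-like endothelium and -1.22 in chondrocyte-like cells, and Tgfbr3 is below 0 in every class.

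**Figure D4:**
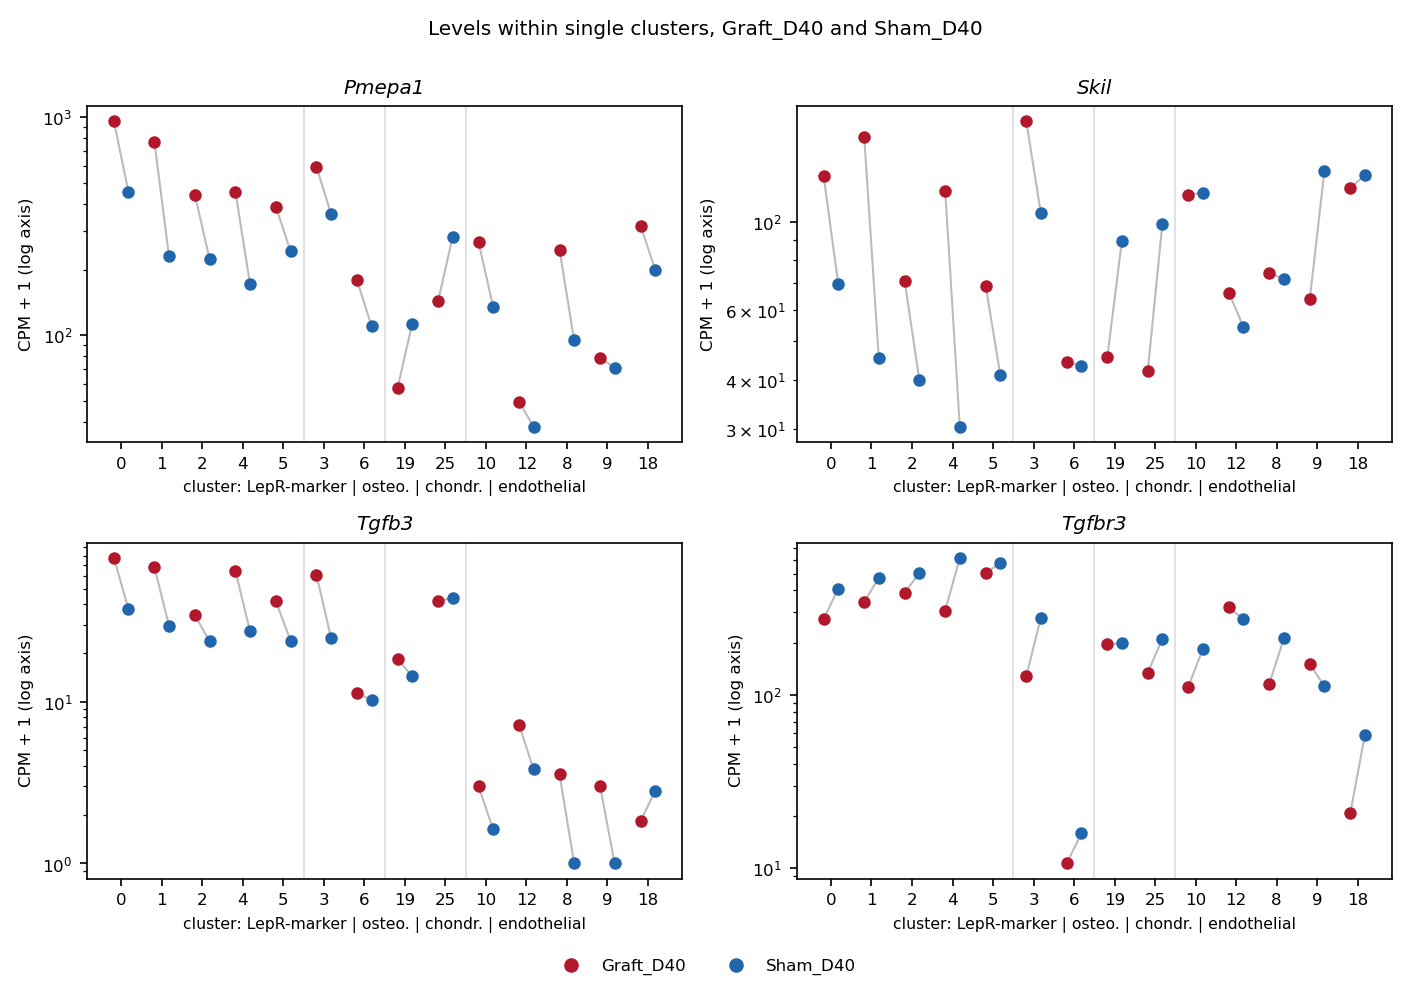
CPM + 1 on a log axis for Pmepa1, Skil, Tgfb3 and Tgfbr3 within 14 single clusters, with Graft_D40 left of Sham_D40 and joined by a line, grouped from left to right as LepR-marker, osteolineage-like, chondrocyte-like and endothelial clusters. Pmepa1 is higher in Graft_D40 in all 12 clusters drawn outside the chondrocyte-like pair and lower in that pair.

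The pathway around the 9 genes was read from 5 further lists of 86 genes, chosen with earlier results of these data known. In the LepR-marker pool, Graft_D40 over Sham_D40, 27 of 77 measured genes rose and 3 fell, beside 7.15% and 4.63% of all genes, with a median log2 ratio of 0.41 against 0.05 for all genes. Genes for latency and activation of the ligands rose in 6 of 13 cases and none fell. Mmp2, a metalloproteinase that can release latent TGF-beta, was at 159 CPM in Graft_D40, 41.1 CPM in Graft_D19, 12.5 CPM in Sham_D40 and 8.03 CPM in Ctrl. Grafted libraries were above ungrafted ones, and the rise held in LepR-like stroma (31.2 CPM in Graft_D40 and 12.1 CPM in Sham_D40). Itgb5, a subunit of a ligand-activating integrin, was at 126 CPM in Graft_D40 and 62.3 CPM in Sham_D40 in the pool and 125 CPM in Graft_D40 and 62.1 CPM in Sham_D40 in LepR-like stroma. Ltbp2 (614 CPM in Graft_D40 and 333 CPM in Sham_D40) and Fbn1 (1285 CPM in Graft_D40 and 712 CPM in Sham_D40), matrix proteins of the fibrillin superfamily, rose in the pool but not in LepR-like stroma. They are among the leading genes of cluster 0, and in LepR-like stroma Fbn1 was at 747 CPM in Graft_D40 and 707 CPM in Sham_D40. Without cluster 0 the latency list had 2 of 13 higher and a median of -0.0043.

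The co-receptor and family receptor list and the transducer list had 2 calls between them. None of 8 measured co-receptor and family receptor genes rose in the pool and Acvr2a, an activin receptor, fell (79.4 CPM in Graft_D40 and 131 CPM in Sham_D40). The receptors Bmpr2 (243 CPM in Graft_D40 and 208 CPM in Sham_D40) and Acvrl1 (29.0 CPM in Graft_D40 and 36.6 CPM in Sham_D40) and the integrin adaptor Itgb1bp1 (29.8 CPM in Graft_D40 and 22.02 CPM in Sham_D40) were not called. Of 9 transducers 1 rose, Smad3, at 14.4 CPM in Graft_D40 and 5.99 CPM in Sham_D40. It was named after its values were seen, as the 1 call of its list. Smad2 (51.1 CPM in Graft_D40 and 38.9 CPM in Sham_D40), Smad5 (52.2 CPM in Graft_D40 and 47.1 CPM in Sham_D40), Zfyve9 (47.7 CPM in Graft_D40 and 42.2 CPM in Sham_D40) and Map3k7 (39.3 CPM in Graft_D40 and 45.3 CPM in Sham_D40) were not called. Among 16 inhibitors 3 rose and 1 fell. Smad6, the other inhibitory SMAD, was at 63.1 CPM in Graft_D40 and 30.3 CPM in Sham_D40, and Dcn, a ligand-binding proteoglycan that is also on the fibroblast list, at 610.1 CPM in Graft_D40 and 351 CPM in Sham_D40. Neither was called in LepR-like stroma, where Dcn was at 364 CPM in Graft_D40 and 353 CPM in Sham_D40. Vasn (93.96 CPM in Graft_D40 and 64.2 CPM in Sham_D40) and Fkbp1a (181 CPM in Graft_D40 and 129 CPM in Sham_D40) were not called.

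Of 31 measured targets 17 rose and 1 fell in the pool, with a median log2 ratio of 0.67. In LepR-like stroma 14 of 29 rose and 1 fell, beside 5.37% and 3.09% of all genes, with a median of 0.58 against 0.06 for all genes. Acta2, smooth muscle actin, was at 92.8 CPM in Graft_D40, 12.5 CPM in Graft_D19, 1.65 CPM in Sham_D40 and 5.20 CPM in Ctrl in the pool. Cluster 0 held 112 CPM in Graft_D40, and LepR-like stroma 9.56 CPM in Graft_D40 and 1.67 CPM in Sham_D40, with a mean too low to be measured. Tagln, another smooth muscle gene, was at 154 CPM in Graft_D40 and 3.46 CPM in Sham_D40 in the pool and rose in LepR-like stroma as well (26.6 CPM in Graft_D40 and 3.40 CPM in Sham_D40). Acta2 and Tagln are also on the pericyte marker list, Col1a1 is on the osteolineage list, and the targets Fn1 and Col3a1 are on the fibroblast list. Postn, periostin, was at 78.1 CPM in Graft_D40 and 1.92 CPM in Sham_D40 in the pool and 2.91 CPM in Graft_D40 and 1.67 CPM in Sham_D40 in LepR-like stroma, where it was not measured. Col1a1, the type I collagen chain, was at 1609 CPM in Graft_D40, 446 CPM in Graft_D19, 211 CPM in Sham_D40 and 136 CPM in Ctrl. Day 40 was above day 19 and both above the ungrafted libraries, and it was called in LepR-like stroma at 470.1 CPM in Graft_D40 and 206 CPM in Sham_D40. At day 19, 13 of the 31 targets rose over Sham_D40 and 1 fell, beside 2.72% and 1.87% of all genes, with a median of 0.51 against 0.06 for all genes.

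In endothelium the same lists were split at day 40, with 16 of 74 genes higher and 11 lower over Sham_D40, beside 5.94% and 6.84% of all genes, and a median of 0.06 against 0.02 for all genes. Of 14 latency genes 7 rose and 2 fell. The ligand tethers Nrros (38.3 CPM in Graft_D40 and 76.1 CPM in Sham_D40) and Lrrc32 (77.4 CPM in Graft_D40 and 148 CPM in Sham_D40) fell, also in sinusoidal-like endothelium alone (80.1 CPM in Graft_D40 and 163 CPM in Sham_D40 for Lrrc32), whereas the latent binding protein gene Ltbp4 rose (478 CPM in Graft_D40 and 271 CPM in Sham_D40). Of 8 measured genes on the co-receptor and family receptor list 1 rose, Cd109, at 76.3 CPM in Graft_D40 and 20.6 CPM in Sham_D40. Eng, endoglin (701 CPM in Graft_D40 and 996 CPM in Sham_D40), and Itgb1bp1 (35.7 CPM in Graft_D40 and 26.3 CPM in Sham_D40) were not called. None of 9 transducers was called, with Smad1 at 253 CPM in Graft_D40 and 169.9 CPM in Sham_D40, Smad2 at 41.9 CPM in Graft_D40 and 51.5 CPM in Sham_D40 and Zfyve9 at 61.4 CPM in Graft_D40 and 54.1 CPM in Sham_D40. Of 13 inhibitors 1 rose and 3 fell, among them Bgn (383 CPM in Graft_D40 and 654 CPM in Sham_D40) and Smad6 (17.5 CPM in Graft_D40 and 28.3 CPM in Sham_D40). Bambi was not called (114 CPM in Graft_D40 and 169.5 CPM in Sham_D40).

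Targets in endothelium rose in 7 of 30 cases and fell in 6. The target list does not give the direction in which the signal moves each gene, so these counts have no common expected direction. Angptl4, a lipoprotein lipase inhibitor, was at 71.2 CPM in Graft_D40, 142 CPM in Graft_D19, 303 CPM in Sham_D40 and 192 CPM in Ctrl, and Id2, a repressor of basic helix-loop-helix factors that BMP signals also control, at 53.4 CPM in Graft_D40, 135 CPM in Graft_D19, 212 CPM in Sham_D40 and 141 CPM in Ctrl. Both were lowest in Graft_D40, also in sinusoidal-like endothelium alone, where Id2 was at 46.9 CPM in Graft_D40 and 239 CPM in Sham_D40. Angptl4 fell in the LepR-marker pool too (122 CPM in Graft_D40 and 346 CPM in Sham_D40), as the 1 target that fell there.

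**Figure D5:**
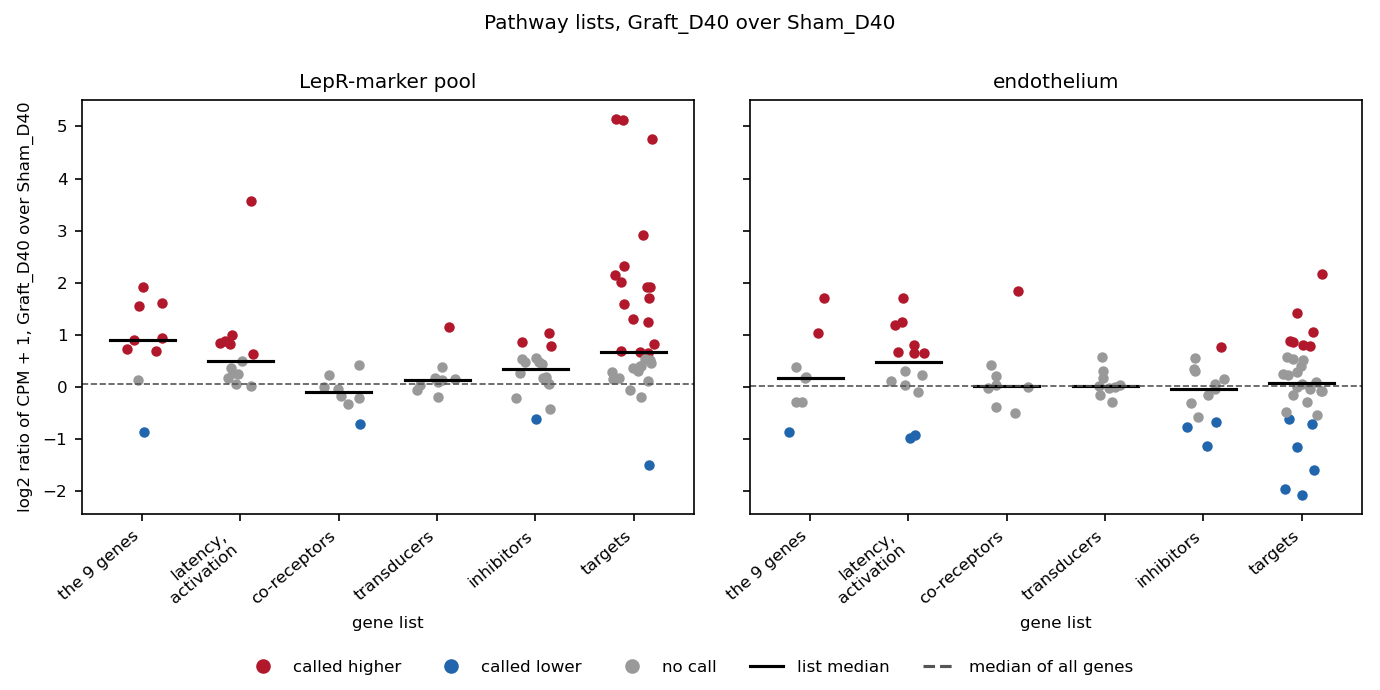
Log2 ratio of Graft_D40 over Sham_D40 (CPM + 1) for each measured gene of the 9 genes and of 5 pathway lists, in the LepR-marker pool (left) and endothelium (right), with red for called higher, blue for called lower and grey for no call. Black bars are list medians and the dashed line is the median of all genes, 0.05 on the left and 0.02 on the right.

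Over the 32 points of 8 classes by 4 libraries, the genes most like each member were sought. The points share libraries and their depth, so the following Pearson correlations of log2 CPM, the highest among 6764 genes searched, are descriptions. Tgfb3 was most like Col6a2 (0.95), Hoxc6 (0.95) and Bmpr1a (0.94), and Tgfbr2 most like Alox12 (0.93), Tspan5 (0.89) and Orai1 (0.85). For Tgfbr3 they were Lbp (0.87), Sdf2l1 (0.78) and Lamp2 (0.78), for Smad7 Hey1 (0.86), Ralgapa1 (0.83) and Unc13b (0.82), and for Pmepa1 Timp2 (0.86), Fbn1 (0.81) and Fstl1 (0.81). Tgfb1 was nearest to Slc7a7 (0.84), Prex1 (0.84) and Fam171a1 (0.83), Tgfb2 to Syt11 (0.83), Rexo2 (0.82) and Fn1 (0.81), Tgfbr1 to Arhgap21 (0.78), Dnajb11 (0.76) and Wwp1 (0.76), and Skil to Dnajb11 (0.78), Arpc1b (0.77) and Kars (0.76). Among the 9 themselves the correlations ran between 0.61 for Skil with Tgfbr1 and -0.60 for Tgfb3 with Tgfbr2, and Pmepa1 with Skil had 0.27.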

How the data were processed

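The authors deposited raw UMI counts per gene and barcode from 10x Genomics 3-prime libraries. Cell Ranger 5.0.0 made the matrices per the file headers, and version 3.1.0 and build mm10 stand in the submitters' processing notes. No source used here says whether strand was used in counting.

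Cells with at least 500 genes, at least 1000 UMIs and at most 10% mitochondrial UMIs were kept. Scrublet (scanpy 1.11.5, expected doublet rate 6%) ran on each library and removed 53 cells of Graft_D40 and 89 of Graft_D19, with 43 of Sham_D40 and 77 of Ctrl. Cells were clustered on 2000 variable genes and 30 components with the Leiden method (resolution 1.0, 15 neighbours, igraph 0.11.9). A cluster of 50 or more cells entered the class with the largest share of markers at least 2-fold up and present in 25% of its cells, with 3 or more such markers, unless 2 or more of its 10 leading genes were blood cell or cell cycle markers. That left out cluster 16, with 12 of 12 LepR markers and haemoglobin genes leading, which held 4 cells of Graft_D40 and 25 of Graft_D19, with 89 of Sham_D40 and 85 of Ctrl. Between any 2 libraries 11 to 15 barcodes were shared. The median of UMIs a cell in the LepR-marker pool was 8013 for Graft_D40 and 7360 for Graft_D19, with 8815 for Sham_D40 and 3798 for Ctrl.

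UMI sums per class and library gave CPM with exact Poisson intervals. Ratios carry exact conditional binomial 95% intervals (scipy 1.17.1), and no test over samples was possible with 1 library a group. Gene positions came from GENCODE vM21, which held 99.8% of the genes. The comparison code was tested on simulated data. The members, gene lists and cluster rules were chosen with earlier results of these data known. In each pathway list the 4 genes (LepR-marker pool) or 3 genes (endothelium) with the largest log2 ratio at 20 CPM or more were named, and for each member the 3 genes most like it. In endothelium 1 gene chosen by this rule is not reported here. Alternatives covered scaling, pseudocount, level and cell filters, doublets, clustering, gating, weighting and the ungrafted comparator.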

Additional observations from a re-analysis of the deposited data

Results flagged for a closer look

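Pmepa1, Skil, Tgfbr1 and Smad7 were called in opposite directions in different classes for Graft_D40 over Sham_D40. Pmepa1 had a log2 ratio of 1.99 in sinusoidal-like endothelium and -1.22 in chondrocyte-like cells. With clusters weighted equally, a setting chosen after seeing the data, the Pmepa1 values were 0.98 and -0.77. Skil had 1.61 in the LepR-marker pool and -0.99 in chondrocyte-like cells. Tgfbr1 had 0.69 in the LepR-marker pool and -0.88 in fibroblast-like cells. Smad7 had 0.72 in the LepR-marker pool and -0.89 in other endothelial cells. None of these differences between classes was tested, because each group had 1 library.

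Graft_D40 and Sham_D40 also held counts of 2 antibody features, named B0301 and B0302, which the labels do not explain and which no comparison used. The median count of B0302 was 572 a cell in Graft_D40, where it exceeded B0301 in all 4867 cells. The median count of B0301 was 341 a cell in Sham_D40, where it exceeded B0302 in all 4527 cells. The features therefore separated these libraries in the same way as their labels.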

How the results depend on the processing

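No paired analysis was possible because each group had 1 library, and for the same reason no library could be left out. Of 312 values of called members over all alternatives 308 kept their direction and 257 their call. Changes of pseudocount, minimum level or call threshold left counts and scaling as they were, so those alternatives could not turn a direction. Dropping the minimum level could not lose a call either. Pmepa1 kept its call in every alternative of all 4 comparisons. Its log2 ratios over Sham_D40 at day 40 lay between 0.90 and 2.07 in the LepR-marker pool. The number of members called at day 40 over Sham_D40 in the LepR-marker pool was 3 at a 2-fold threshold and 5 with clusters weighted equally (a setting chosen after seeing the data), against 8. With cluster 16 put into the pool, likewise chosen after seeing the data, the counts stayed at 8 (day 40) and 6 (day 19 over Ctrl). In endothelium the 3 calls became 6 with Ctrl as comparator and 1 with clusters weighted equally. The 6 calls of day 19 over Ctrl in the LepR-marker pool became 3 with median-of-ratios scaling, 1 at 2-fold, 3 as a mean over cells, 2 against Sham_D40 and 3 without clusters 0 and 1, and the 4 in endothelium became 2 at 2-fold and 1 against Sham_D40. The median-of-ratios scaling put the median log2 ratio of all genes at -0.0017, against 0.29 with CPM. Reversed values were Tgfb2 at day 40 in the LepR-marker pool, -1.005 without clusters 0 and 1 and -0.24 with clusters weighted equally, and at day 19 in endothelium against Sham_D40 Tgfb2 at -0.19 and Smad7 at -0.37. The cause was not tested. Depth limits the low genes most: Tgfb2 in endothelium rested on 364 UMIs in Graft_D40 and 163 in Graft_D19, against 154 in Sham_D40 and 23 in Ctrl.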
